A study of Mus musculus with 59 samples.

Results

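Embryonic stem cell lines made by nuclear transfer (NT-ESC) were compared with the induced pluripotent stem cell (iPSC) clones of the blood-cell groups they came from. Of the 59 mouse arrays in the series, 10 enter the comparison, chosen by their labels alone: NT-7, NT-8 and NT-9 on one side, and 7 iPSC clones on the other. The iPSC were 4 clones of HSC origin (iPSC-7, iPSC-8, iPSC-9 and iPSC-10) and 3 clones of granulocyte origin (iPSC-15, iPSC-16 and iPSC-17), all from the animal labelled mouse 1. The cells of origin came from chimeric mice made with ESCs holding an inducible cassette for myc, Klf4, Oct4 and Sox2, so every line of both arms descends from cells with that cassette. Per the labels, NT-7 is a subclone from a blastocyst cloned out of iPSC-7, and NT-8 and NT-9 are both subclones from iPSC-15. The 3 NT-ESC therefore stand for 2 donor clones. All lines grew in serum and LIF medium on irradiated MEFs, which were depleted by preplating before RNA extraction. The labels state no strain, age or sex of the animals. Each line was hybridised to 1 array, and nothing in the labels says that lines were grown as separate cultures in parallel, so p-values measure the spread between these arrays.

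In nuclear transfer the nucleus of a donor cell is placed in an enucleated egg, which resets it and can develop to a blastocyst, from whose inner cell mass ESC lines are taken. An ESC line made this way from an iPSC clone has the donor's genome and has passed through the egg and the early embryo once more. The inner cell mass gives rise to the epiblast, the source of ESCs, and to the primitive endoderm, an epithelium under the factors Gata6, Gata4 and Sox17 that lays down basement membrane and later forms the parietal and visceral endoderm of the yolk sac. The comparison bears on what that passage leaves in a line that was already pluripotent. For reference, 4 ESC clones of the series and a second family, the adenoviral iPSC clone Adeno-2 of fetal liver origin with its NT-ESC subclones NT-4, NT-5 and NT-6, were measured in the same way.

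The labels were checked against marker genes, on the deposited log2 intensity scale, which is centred near 0 on each array and runs from about -4.47 for the dimmest gene mean to 6.80 for the brightest in the 7 iPSC. Both arms had high levels of the pluripotency markers. Over Pou5f1, Sox2, Nanog, Zfp42, Dppa5a and Esrrb, the NT-ESC read from 3.59 to 5.90 and the iPSC from 4.05 to 5.98. Blood markers were dim in both arms: Ptprc, the pan-leukocyte antigen CD45, read -3.34 in NT-7, -3.91 in NT-8 and -4.31 in NT-9, against -3.98 to -3.79 (median -3.89) in the iPSC, and of Ptprc, Spi1, Cd34, Mpo, Itgam and Csf3r none was above -0.83 (Spi1 in NT-8) on any of the 10 arrays. Col1a1, a fibrillar collagen of the MEF feeders and of other mesenchymal cells, read 4.06 in NT-7, 4.11 in NT-8 and 4.25 in NT-9, against 3.26 to 4.59 (median 3.83) in the iPSC. The mean over 31 fibroblast and feeder genes ran from 1.79 to 2.24 in the NT-ESC and from 1.59 to 2.72 in the iPSC, so the arms overlapped in it. Of the primitive endoderm markers, Sox17, Gata4 and Gata6 were higher in every NT-ESC than in any iPSC, with their values below.

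The 3 NT-ESC arrays stood apart from the other 56. Their values were less spread, with an SD over probe sets of 2.35 to 2.47 against 2.59 to 2.64 in the 7 iPSC and 2.54 to 2.64 in the 56 others. The difference of -0.219 has an exact permutation p of 0.00833 (2-sided), the smallest that 120 regroupings of 3 against 7 can give. Their mean correlation over probe sets with the ESC and iPSC arrays was 0.889 to 0.940, against 0.982 to 0.993 for every other array. They also differed among themselves. NT-8 and NT-9, from 1 donor clone, correlated at 0.967, while pairs of NT-4, NT-5 and NT-6 correlated at 0.997 to 0.998. The labels and files used here give no scan date or batch, so array and line cannot be told apart in this. The levels below are therefore given array by array, and a gene is said to have changed, risen or fallen only where limma gave a Benjamini-Hochberg adjusted p under 0.05 over all 11807 genes both in the deposited values and after quantile normalization, in the same direction. Differences are NT-ESC minus iPSC in log2 units of the deposited values. The fit pooled 1 spread per gene over both arms, although the NT-ESC arrays differed more among themselves. The SD of the difference between 2 arrays was 0.627 for NT-8 and NT-9, against 0.278 for iPSC-7 and iPSC-15. Where the NT-ESC vary more than the iPSC, the SE given can be too small.

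In the deposited values 8700 of 11807 genes (73.7%) passed, 5168 higher and 3532 lower. On both scales 3951 genes (33.5%) rose and 2799 (23.7%) fell, 1215 and 1247 of them by 1 log2 unit or more. All 3 NT-ESC lay outside the range of the 7 iPSC in 6077 of these 6750 genes. Counted against all 56 other arrays of the series, all 3 NT-ESC were above the highest in 2331 genes (19.7%) and below the lowest in 1652 (14%). Because so many genes passed, counts in the gene lists below are read against these shares. The difference also followed the level in the iPSC. With genes split into 3 equal bands by iPSC level, in the dimmest band 1749 rose and 123 fell (median difference 0.63), and in the brightest 688 rose and 1737 fell (median -0.43). After quantile normalization the medians were 0.30 and -0.21. With genes under the 40th percentile of mean level left out, 36.1% of the called genes in the deposited values were higher, against 59.4% of all called.

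The gene list with the largest median difference was that of the primitive endoderm. Of its 23 measured genes 20 rose (87% against 33.5% of all genes) and 1 fell, with a median difference of 1.94 against 0.21 over all genes, and 2.11 after quantile normalization. The mean level of the 23 was 0.97 in NT-7, 1.69 in NT-8 and 1.68 in NT-9, against -0.59 to -0.42 in the 7 iPSC and -0.60 to -0.44 in the 4 ESC clones. In 17 of the 23 all 3 NT-ESC were above every other array of the series, against 19.7% of all genes. With arrays scaled to a common SD 20 of the 23 were higher and 1 lower at an adjusted p under 0.05, with a median of 1.95. In bulk RNA a larger share of cells of a type and more RNA per cell cannot be told apart.

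Sequences around the start of these genes are shown for members that moved together or that hold the letters bound by the lineage's own factors. The RefSeq promoter table (assembly GRCm38.p6) holds a window from 250 bases before to 50 after the start for 16 of the 23 members. The GATA letters AGATAA or TGATAA, searched on both strands, stand in 4 of the 16 (25%): Foxa2, Hnf4a, Apoa1 and Dab2. One stands in a window of 21% of all 27025 genes listed there, a share near that of the members. The windows of Apoa1 and Dab2 are given 5′ to 3′ with the matched letters in capitals, as found on the printed strand or as the reverse complement. The match of Apoa1 and the later match of Dab2 lie in the 50 bases after the start. A match here is a description of the sequence only.
Apoa1, chr9:46228380-46228679, plus strand: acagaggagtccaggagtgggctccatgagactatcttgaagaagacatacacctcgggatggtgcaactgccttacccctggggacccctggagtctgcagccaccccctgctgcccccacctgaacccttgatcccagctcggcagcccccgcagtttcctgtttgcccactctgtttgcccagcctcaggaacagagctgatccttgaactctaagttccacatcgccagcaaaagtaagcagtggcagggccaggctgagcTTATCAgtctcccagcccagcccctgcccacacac
Dab2, chr15:6299539-6299838, plus strand: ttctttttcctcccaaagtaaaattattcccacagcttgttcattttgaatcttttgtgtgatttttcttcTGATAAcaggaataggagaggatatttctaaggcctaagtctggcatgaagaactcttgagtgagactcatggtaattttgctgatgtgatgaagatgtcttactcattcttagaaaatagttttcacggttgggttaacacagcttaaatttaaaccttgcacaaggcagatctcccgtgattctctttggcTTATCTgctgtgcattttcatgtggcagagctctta
Col4a1 and Col4a2 encode the 2 chains of the main basement membrane collagen and start 21 bases apart on opposite strands. Their windows share 78 bases, in capitals, and have a GC content of 74% and 73.7%, against a median of 52.7% over all windows.
Col4a1, chr8:11312777-11313076, minus strand: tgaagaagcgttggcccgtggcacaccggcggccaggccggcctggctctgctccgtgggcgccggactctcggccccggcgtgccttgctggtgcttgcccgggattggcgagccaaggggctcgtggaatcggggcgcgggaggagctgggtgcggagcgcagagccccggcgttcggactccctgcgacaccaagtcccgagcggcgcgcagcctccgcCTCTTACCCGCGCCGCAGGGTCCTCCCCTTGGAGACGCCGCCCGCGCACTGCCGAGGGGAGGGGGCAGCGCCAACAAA
Col4a2, chr8:11312555-11312854, plus strand: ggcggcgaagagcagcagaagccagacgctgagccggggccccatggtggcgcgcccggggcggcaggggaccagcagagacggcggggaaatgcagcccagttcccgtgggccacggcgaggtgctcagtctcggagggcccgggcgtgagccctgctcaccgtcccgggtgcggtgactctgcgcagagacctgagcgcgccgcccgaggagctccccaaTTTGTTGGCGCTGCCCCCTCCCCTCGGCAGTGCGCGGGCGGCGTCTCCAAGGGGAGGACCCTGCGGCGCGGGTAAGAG

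Among the transcription factors of the list, Sox17, Gata4, Gata6 and Foxa2 rose and Hhex was not called. Sox17 (chr1:4490928-4497426) read -0.60 in NT-7, 2.37 in NT-8 and 1.96 in NT-9, against -3.42 to -2.99 (median -3.23) in the iPSC. Every NT-ESC was above every iPSC and above the highest of the 56 other arrays (-2.79), and NT-7 was the lowest of the 3. The difference was 4.46 (SE 0.47, adjusted p = 1.0e-05). Gata4 read -1.0 in NT-7, 0.51 in NT-8 and -0.94 in NT-9, against -2.58 to -2.17 (median -2.25) in the iPSC, a difference of 1.81 (adjusted p = 1.1e-04). Gata6, which acts upstream of Gata4 and Sox17 in this lineage, read -0.91 in NT-7, 0.64 in NT-8 and 1.03 in NT-9, against -2.06 to -1.59 (median -1.85) in the iPSC, a difference of 2.11 (adjusted p = 1.2e-04), again without overlap. Foxa2, a forkhead factor of endoderm, rose by 2.73 (adjusted p = 6.0e-06), reading -0.44 in NT-7, 1.03 in NT-8 and -0.47 in NT-9 against -2.79 to -2.39 (median -2.75) in the iPSC. Hhex, a homeobox gene of anterior visceral endoderm, was not called (difference -0.19, adjusted p = 0.397).

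Apoa1, Cubn, Ttr and Dkk1, which visceral endoderm makes for secretion or uptake, rose, and Apoe was not called on both scales. Apoa1 (chr9:46228630-46230469), the main protein of high-density lipoprotein, read 2.25 in NT-7, 3.26 in NT-8 and 2.46 in NT-9, against -1.70 to -1.16 (median -1.53) in the iPSC, a difference of 4.15 (SE 0.20, adjusted p = 6.0e-08), and its second probe set rose by 3.27. Cubn (chr2:13276338-13491876), the endocytic receptor cubilin of absorptive epithelia, read 0.35 in NT-7, 1.76 in NT-8 and 2.93 in NT-9, against -2.51 to -1.96 (median -2.31) in the iPSC, a difference of 3.94 (SE 0.39, adjusted p = 6.3e-06). These 2 genes separated the arms completely. Ttr, the thyroxine and retinol carrier transthyretin, read 0.14 in NT-7, 0.11 in NT-8 and 1.09 in NT-9, against -1.79 to -1.14 (median -1.43) in the iPSC, and rose by 1.94 in its brighter probe set and by 4.56 in the other. Rbp4, the retinol carrier that Ttr binds, was among the 15 largest rises of the whole comparison, with 1.21 in NT-7, 1.95 in NT-8 and 1.52 in NT-9 against -2.51 to -1.93 (median -2.32) in the iPSC (difference 3.79, adjusted p = 4.7e-08). Apoe, a lipoprotein made by many cell types, read 1.71 in NT-7, 1.93 in NT-8 and 2.37 in NT-9, against 2.22 to 3.17 (median 2.55) in the iPSC, with a difference of -0.59 that passed in the deposited values (adjusted p = 0.0166) and not after quantile normalization (adjusted p = 0.139). Dkk1, a secreted Wnt antagonist, rose by 2.58 (adjusted p = 1.9e-07), reading 0.33 in NT-7, -0.29 in NT-8 and 0.52 in NT-9 against -2.55 to -2.28 (median -2.36) in the iPSC. Srgn (chr10:62493833-62527445), the granule proteoglycan serglycin, which is also abundant in blood cells, had the largest rise among genes called on both scales. It read 2.29 in NT-7, 4.29 in NT-8 and 4.00 in NT-9, against -2.09 to -1.84 (median -1.95) in the iPSC, a difference of 5.49 (SE 0.32, adjusted p = 1.9e-07).

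Of the basement membrane genes in the list, Col4a1, Col4a2, Lama1 and Lamb1 rose and Lamc1 fell. Col4a1 (chr8:11198423-11312889) read 4.50 in NT-7, 5.01 in NT-8 and 4.95 in NT-9, against 1.40 to 2.41 (median 1.75) in the iPSC, a difference of 3.02 (SE 0.19, adjusted p = 2.9e-07), and its other probe set rose by 4.15. Col4a2, its neighbour in the sequences above, read 3.31 in NT-7, 4.45 in NT-8 and 4.25 in NT-9, against 1.08 to 2.50 (median 1.52) in the iPSC (difference 2.40, adjusted p = 2.7e-05). The lowest NT-ESC value of either gene was above the highest iPSC value. Of the 3 chains of laminin-111, Lama1 rose by 2.73 (adjusted p = 1.0e-06) and read 3.29 in NT-7, 4.41 in NT-8 and 4.30 in NT-9 against 0.96 to 1.40 (median 1.33) in the iPSC. Lamb1 rose by 1.36 (adjusted p = 2.4e-05), although 1 of its 3 probe sets was at -0.06. Lamc1 fell by 1.04 (adjusted p = 0.0098, and 0.0381 after quantile normalization), and it was the list's 1 lower gene. Its levels of 1.40 in NT-7, 2.35 in NT-8 and 3.45 in NT-9 overlapped with 3.31 to 3.56 (median 3.45) in the iPSC, NT-9 being within the iPSC range. Dab2, an endocytic adaptor of primitive endoderm, read 1.00 in NT-7, 0.68 in NT-8 and 1.85 in NT-9, against -1.27 to -0.12 (median -0.82) in the iPSC, and rose by 1.99 (adjusted p = 5.0e-05).

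**Figure D1:**
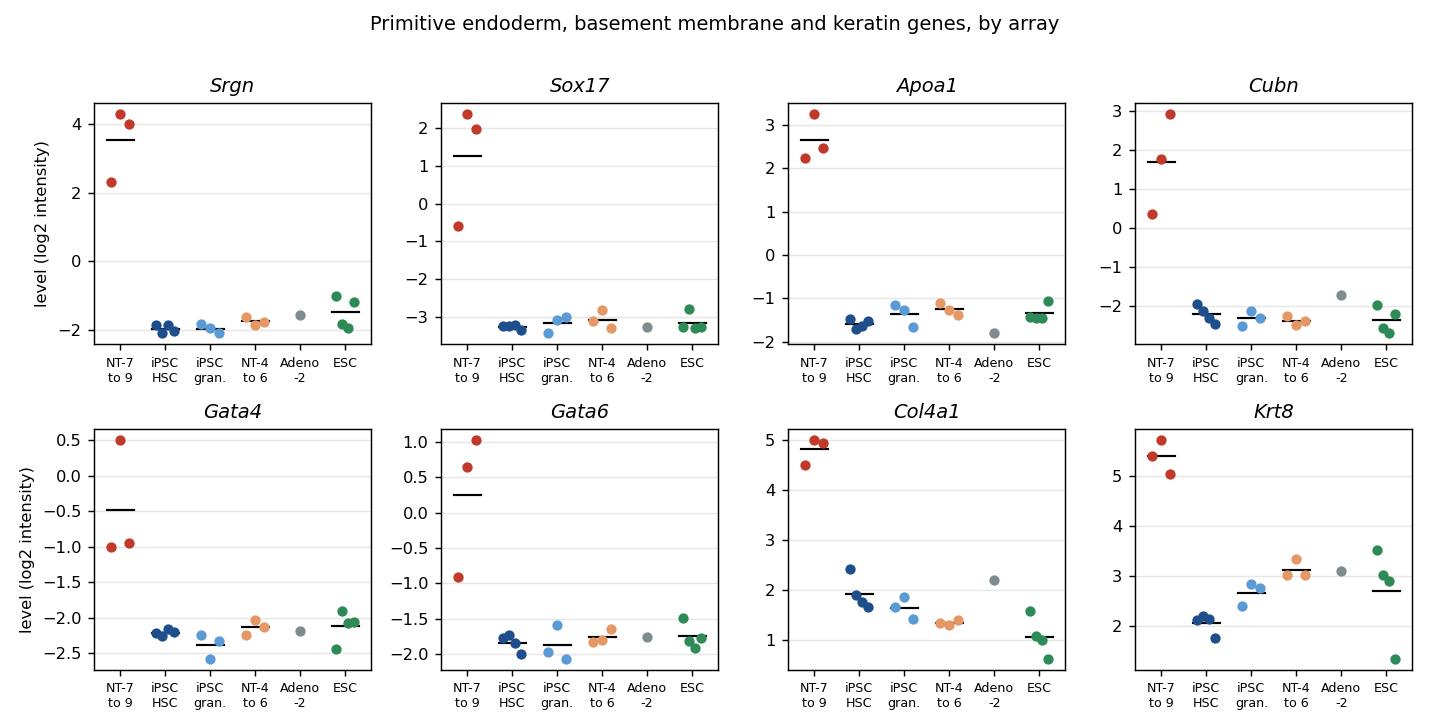
Levels (log2 intensity, deposited scale) of primitive endoderm, basement membrane and keratin genes, 1 point per array. The NT-ESC, the HSC-origin iPSC, the granulocyte-origin iPSC, NT-4 to NT-6, Adeno-2 and the ESC clones are in separate colours. For Sox17 the NT-ESC lie at -0.60, 2.37 and 1.96, above all 7 iPSC at -3.42 to -2.99.

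The members differed in how evenly the 3 NT-ESC shared the rise. Where several probe sets measure a member (14 genes), every set rose in 10 and none had sets called in opposite directions, against 10% of the 4150 such genes in which every set rose. Each NT-ESC was above its own donor clone in 20 of the 23 members, against 5170 of all 11807 genes. NT-7 was the lowest of the 3 for Srgn, Sox17, Cubn, Gata6 and Lama1. In the second family the same list had a median difference of -0.13 (NT-4 to NT-6 minus Adeno-2), and 18 of the 23 members departed upward from that family on both scales, against 2092 of 11807 genes.

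Keratins of simple epithelia also rose. They are shared by primitive endoderm and trophoblast. Krt8 read 5.40 in NT-7, 5.72 in NT-8 and 5.04 in NT-9, against 1.76 to 2.84 (median 2.20) in the iPSC, a difference of 3.07 (SE 0.23, adjusted p = 8.5e-07). Its partner Krt18 rose by 1.12, Krt19 by 1.61 and Krt7 by 3.59 (adjusted p = 1.1e-07), Krt7 with 3.35 in NT-7, 2.66 in NT-8 and 2.82 in NT-9 against -1.01 to -0.33 (median -0.57) in the iPSC. These 4 belong to the trophoblast list, of which 10 of 18 rose (55.6% against 33.5% of all genes) and 2 fell (median 0.98). The 2 that fell were Fgfr2, given below, and Prl2c2 (difference -2.36, and -2.635 after quantile normalization). Besides the keratins, the members that rose were the transcription factors Tead4 (1.46, adjusted p = 2.7e-05), Ascl2 (0.99, with another probe set at -0.39), Hand1 (0.96) and Esx1 (1.10) and the X-linked homeobox genes Rhox6 (1.64) and Rhox9 (1.51). Cdx2, Elf5 and Gata3, factors of the same list, were not called on both scales. Cdx2 read -1.10 in NT-7, -0.80 in NT-8 and -0.73 in NT-9, against -1.48 to -0.52 (median -0.79) in the iPSC (difference 0.07, adjusted p = 0.745), although its dimmer probe set rose by 1.54. Elf5 and Gata3 were dim throughout and passed in the deposited values only (adjusted p = 0.199 and 0.244 after quantile normalization). Fgfr2, the receptor through which Fgf4 acts on trophoblast and primitive endoderm, fell by 3.02 in its brighter probe set (adjusted p = 3.3e-08), reading -1.99 in NT-7, -1.88 in NT-8 and -1.85 in NT-9 against 0.71 to 1.40 (median 1.12) in the iPSC, while its other set differed by 0.10.

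Outside the endoderm list, large rises were found in genes of several functions. Slco2a1, a prostaglandin transporter, read 2.67 in NT-7, 4.01 in NT-8 and 3.15 in NT-9, against -1.73 to -1.15 (median -1.48) in the iPSC (difference 4.75, adjusted p = 6.5e-08). Ctsh, the lysosomal protease cathepsin H, read 2.26 in NT-7, 3.57 in NT-8 and 3.36 in NT-9, against -1.54 to -0.46 (median -1.18) in the iPSC (difference 4.15, adjusted p = 3.7e-07). Stard8, on the X chromosome, read 2.51 in NT-7, 2.42 in NT-8 and 2.06 in NT-9, against -1.88 to -1.35 (median -1.71) in the iPSC (difference 4.00, SE 0.14, adjusted p = 1.1e-08). In all 3 genes the arms did not overlap. Gstm3, a glutathione transferase, rose by 4.52, Selenbp1, a selenium-binding protein, by 3.98, Pga5, a pepsinogen, by 3.71, Prss12, the protease neurotrypsin, by 3.37, Dram1, a lysosomal membrane protein of autophagy, by 3.36, and the linker histone H1f2 by 3.35. For each of these 6 the NT-ESC were above all 56 other arrays.

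Lists of other germ layers and of blood had smaller median differences. In the primitive streak and mesoderm list 9 of 17 rose (52.9% against 33.5% of all genes) and 1 fell. Only 4 of the 17 had a level above 0 in either arm. Bmp4, a signal made by extraembryonic ectoderm and mesoderm, was the 1 that fell, by 1.98 (adjusted p = 3.2e-04). Wnt3a rose by 1.25. Of 39 haematopoietic genes 23 rose (59% against 33.5% of all genes) and 4 fell (median 0.72). Only 5 of the 39 had a level above 0 in either arm. Of the 39, 30 were above the donor in each NT-ESC, against 5170 of all 11807 genes. Most of the list lies at the dim end of the scale, where most genes read higher. Lyz2, lysozyme of macrophages and granulocytes, had the largest rise of the list, 2.01 (adjusted p = 4.0e-05), with 1.13 in NT-7, 0.43 in NT-8 and -0.05 in NT-9 against -1.99 to -1.04 (median -1.48) in the iPSC. Spi1, the myeloid factor PU.1, read -0.93 in NT-7, -0.83 in NT-8 and -1.15 in NT-9, against -2.50 to -2.18 (median -2.30) in the iPSC (difference 1.34, adjusted p = 1.2e-06), and Cd34 fell by 0.94 (adjusted p = 1.2e-04). Mpo, Itgam and Csf3r passed in the deposited values but not after quantile normalization, and Ptprc passed in neither (difference 0.04). In the fibroblast and feeder list 8 of 31 rose and 6 fell (25.8% and 19.4%, against 33.5% and 23.7% of all genes). Thy1 was at 1.26 (adjusted p = 0.00257) and the metalloprotease inhibitor Timp1 at -1.84 (adjusted p = 2.2e-04). In the second family the same list was lower in the NT-ESC than in Adeno-2, by a median of 1.29 log2 units (-1.29).

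Of the 4 reprogramming factors, Pou5f1 and Myc fell and Sox2 and Klf4 were not called on both scales. Pou5f1 read 4.06 in NT-7, 3.78 in NT-8 and 3.90 in NT-9, against 4.51 to 4.68 (median 4.54) in the iPSC, and fell by 0.66 (adjusted p = 7.0e-05; -0.44 after quantile normalization, adjusted p = 0.00192). The 2 arms did not overlap, but both were bright. Nanog read 4.56 in NT-7, 4.18 in NT-8 and 4.56 in NT-9, against 4.63 to 5.11 (median 4.81) in the iPSC, a difference of -0.40 that passed in the deposited values (adjusted p = 0.0129), missed after quantile normalization (adjusted p = 0.0687) and turned positive by under 0.01 when arrays were scaled to a common SD. Sox2 (-0.20, adjusted p = 0.115), Klf4 (0.18, adjusted p = 0.211) and Esrrb (-0.07, adjusted p = 0.649) were not called in the deposited values. Myc (chr15:61985341-61990361) read -0.67 in NT-7, -0.40 in NT-8 and 0.25 in NT-9, against 1.81 to 2.99 (median 2.74) in the iPSC, a fall of 2.86 (SE 0.25, adjusted p = 2.8e-06). The ESC clones had a mean of 0.97 for Myc and the NT-ESC of Adeno-2 1.73, between both arms.

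Over the pluripotency list 9 of 34 rose and 15 fell (median -0.32, and 14 and 14 when arrays were scaled to a common SD). These are 26.5% and 44.1%, against 33.5% and 23.7% of all genes. The list mean in the iPSC, 3.24 to 3.44, lies in the brightest band, where 1737 of 3936 genes fell, a share near that of the list. The falls were deepest in 4 genes. Lin28a (chr4:134003330-134019196), the RNA-binding blocker of let-7 maturation, read -0.34 in NT-7, -0.18 in NT-8 and 2.02 in NT-9, against 4.24 to 4.43 (median 4.29) in the iPSC, a difference of -3.83 (SE 0.39, adjusted p = 7.4e-06) with a second probe set at -4.07. Gbx2, a homeobox gene induced by LIF signalling, read -1.47 in NT-7, -1.85 in NT-8 and -2.02 in NT-9, against 1.53 to 2.18 (median 2.08) in the iPSC (difference -3.79, adjusted p = 3.1e-08). The 4 ESC clones had a mean of -0.21, between both arms. The TGF-beta family ligands Gdf3 (-2.17, adjusted p = 1.9e-05) and Lefty1 (-1.73, adjusted p = 5.5e-07), the latter a Nodal antagonist, were the other two. Zfp42, the naive marker Rex1, fell by 0.66 (adjusted p = 2.4e-04), reading 3.62 in NT-7, 3.59 in NT-8 and 3.88 in NT-9 against 4.21 to 4.59 (median 4.35) in the iPSC.

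**Figure D2:**
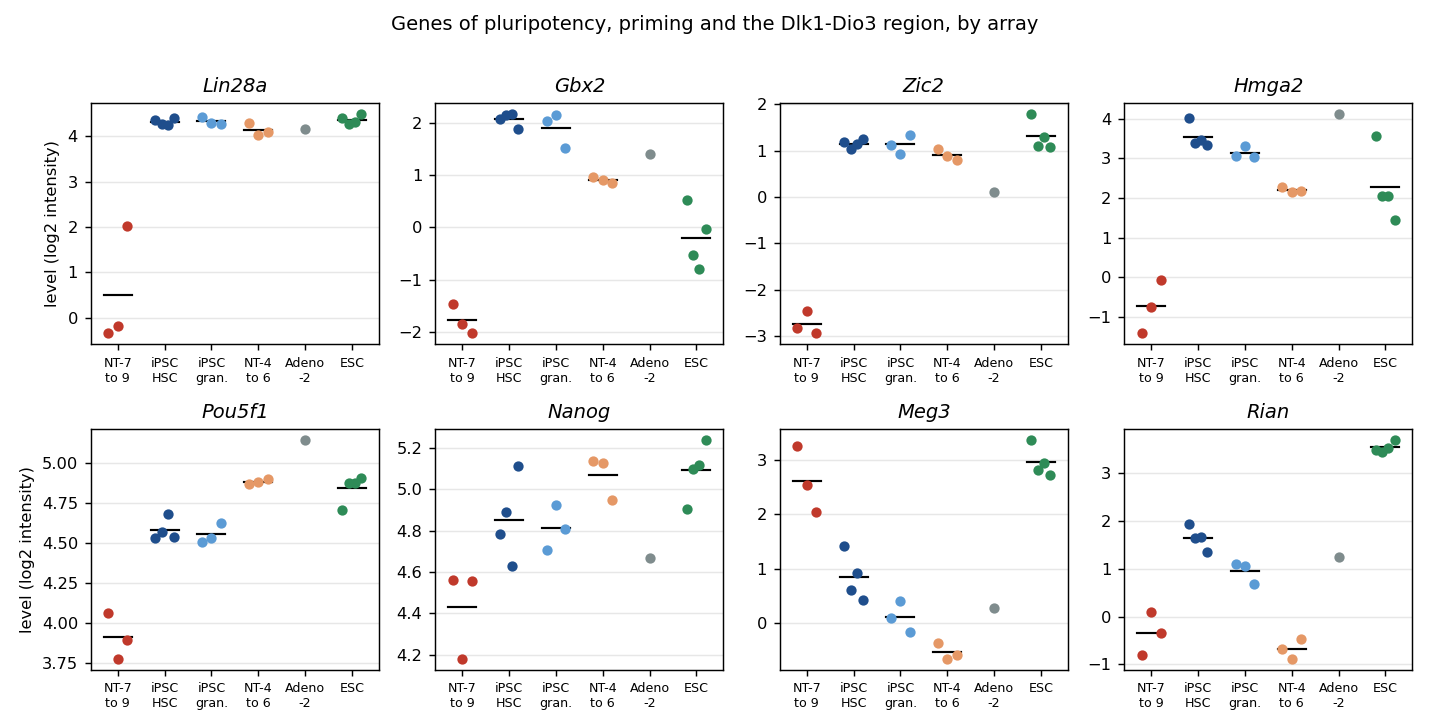
Levels (log2 intensity, deposited scale) of Lin28a, Gbx2, Zic2, Hmga2, Pou5f1, Nanog, Meg3 and Rian. Each array is a point, in the same groups as the figure of primitive endoderm genes. Meg3 was higher in the NT-ESC and the other genes read lower, Nanog without passing after quantile normalization. For Lin28a the NT-ESC lie at -0.34, -0.18 and 2.02 and the iPSC at 4.24 to 4.43.

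Genes of epiblast priming and neural genes held several of the deepest falls. Zic2 (chr14:122475384-122480328), a zinc finger factor of the primed epiblast and neural plate, read -2.81 in NT-7, -2.46 in NT-8 and -2.93 in NT-9, against 0.94 to 1.33 (median 1.14) in the iPSC, a difference of -3.88 (SE 0.12, adjusted p = 6.1e-09). All 3 NT-ESC were dim and all 7 iPSC near 1 log2 unit, with no overlap. Pou3f1, a POU factor of the same stage, fell by 2.57 (adjusted p = 2.8e-07) in its brighter probe set and rose by 0.38 in the other. Lef1, a nuclear partner of beta-catenin, fell by 1.98. The list of epiblast and priming genes as a whole went both ways, with 5 of 16 higher and 6 lower (31.2% and 37.5%, against 33.5% and 23.7% of all genes). In the neuroectoderm list 3 of 12 rose and 4 fell (25% and 33.3%). The 4 were Pax6 (-3.46, adjusted p = 6.9e-08), Nefl, a neurofilament (-2.71), Neurod1 (-2.30) and Tubb3, a neuronal tubulin (-2.22), which read -0.03 in NT-7, -0.16 in NT-8 and 0.77 in NT-9, against 2.23 to 2.67 (median 2.37) in the iPSC. For Pax6, 3 of the 5 probe sets were higher, by up to 0.82.

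Further deep falls were spread over genes of several functions. Snurf (chr7:59982495-60005199), read from the same imprinted transcript unit as Snrpn, had the largest difference in this direction. It read -2.23 in NT-7, -2.32 in NT-8 and -2.38 in NT-9, against 2.55 to 3.00 (median 2.70) in the iPSC, a difference of -5.06 (SE 0.12, adjusted p = 5.9e-10). Snrpn itself, a splicing protein, read 3.62 in NT-7, 3.53 in NT-8 and 3.50 in NT-9, against 4.2 to 4.55 (median 4.35) in the iPSC, and fell by 0.81 (adjusted p = 2.7e-05), with 1 of its 3 probe sets higher by 0.53. The 2 symbols overlap in the genome, and the arrays do not say which transcripts each probe set reads. Hmga2, a chromatin architectural protein, read -1.40 in NT-7, -0.74 in NT-8 and -0.07 in NT-9, against 3.04 to 4.01 (median 3.33) in the iPSC (difference -4.11, adjusted p = 3.0e-07), and its other probe sets fell by 4.42 and 4.46. Etv1, an ETS factor, fell by 4.35, Thumpd1, an adaptor for tRNA acetylation, by 4.06, Rtn4, the reticulon Nogo, by 3.96, and Smn1, the SMN protein of snRNP assembly, by 3.72. Foxp1, a forkhead factor, fell by 3.63 in its brightest probe set, and its other 6 sets also read lower, by 0.48 to 2.26. In all these genes the NT-ESC lay below every iPSC.

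Imprinted genes were tested because the Dlk1-Dio3 region on chromosome 12 is known to vary between iPSC clones. In their brightest probe sets its maternal transcripts went in opposite directions. Meg3 (chr12:109540996-109571729) read 3.25 in NT-7, 2.55 in NT-8 and 2.05 in NT-9, against -0.17 to 1.42 (median 0.41) in the iPSC, a difference of 2.09 (SE 0.32, adjusted p = 1.5e-04). The 4 ESC clones had a mean of 2.97 and NT-4, NT-5 and NT-6 a mean of -0.54. The 4 probe sets of Meg3 differed by 2.09, 1.03, 0.71 and -0.32, the last not called. Rian (chr12:109603945-109661716), a snoRNA host transcript of the same strand, read -0.79 in NT-7, 0.10 in NT-8 and -0.35 in NT-9, against 0.69 to 1.94 (median 1.35) in the iPSC, a difference of -1.70 (SE 0.26, adjusted p = 1.5e-04), with a mean of 3.54 in the ESC clones. The other probe sets of Rian, dim in both arms, differed by -0.61 and -0.17, the last not called. The paternally expressed Dlk1 was dim and not called (0.20, adjusted p = 0.555). Of 29 other imprinted genes 8 rose and 11 fell (27.6% and 37.9%, against 33.5% and 23.7% of all genes). Their median difference was -0.13, and 0.02 when arrays were scaled to a common SD. Slc22a18, a transporter, rose by 2.17, and Mcts2, a retrogene expressed from the paternal allele, read 1.84 in NT-7, 2.50 in NT-8 and 3.19 in NT-9, against -0.30 to 1.5 (median 0.64) in the iPSC (difference 1.74, adjusted p = 0.0013). All 10 arrays were below the ESC mean of 3.46 for Mcts2. Peg3, a paternally expressed zinc finger gene, fell by 2.06 (adjusted p = 6.5e-04), with NT-9 at 1.08 nearest to the iPSC.

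Proliferation genes were lower almost throughout. Of 27 measured, 22 fell (81.5% against 23.7% of all genes) and 0 rose, with a median of -1.11, and in 18 of the 27 all 3 NT-ESC were below every other array, against 14% of all genes. Scaled to a common SD, 21 fell and 1 rose. The mean over the list was 2.55, 2.66 and 3.17 in NT-7, NT-8 and NT-9 against 3.84 to 3.96 in the iPSC. That mean lies in the brightest band of iPSC level, where 1737 of 3936 genes fell (median -0.43), a larger share than over all genes. Rrm2, the ribonucleotide reductase subunit that limits DNA precursor supply, read 1.77 in NT-7, 2.26 in NT-8 and 3.06 in NT-9, against 4.28 to 4.61 (median 4.59) in the iPSC, a difference of -2.16 (SE 0.21, adjusted p = 5.7e-06), with its other probe set at -2.08. Mcm5, a subunit of the replicative helicase, read 1.34 in NT-7, 1.88 in NT-8 and 2.89 in NT-9, against 3.86 to 4.13 (median 3.92) in the iPSC (difference -1.93, adjusted p = 3.5e-05). NT-9 was the nearest to the iPSC in both. Mcm2 of the same helicase fell by 1.83 in its brighter probe set, and its other set differed by 0.23. In 4 of the 12 members with several probe sets, sets were called in opposite directions, and in 5 every set fell. Over all genes with several probe sets these shares were 11.5% and 10.5%.

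Cholesterol and fatty acid synthesis genes were lower as well (66.7% fell, against 23.7% of all genes). Their mean in the iPSC, 2.17 to 2.43, also lies in the brightest band, where 1737 of 3936 genes fell. Of 18 measured genes 12 fell and 0 rose (median -1.04; 12 and 1 when scaled to a common SD), and 10 were below every other array. Fdps (chr3:89093588-89101967), which makes farnesyl diphosphate in the mevalonate pathway, read -2.21 in NT-7, -0.32 in NT-8 and 0.47 in NT-9, against 2.75 to 3.31 (median 2.88) in the iPSC, a difference of -3.62 (SE 0.41, adjusted p = 1.7e-05). NT-7 was lowest and NT-9 highest of the 3. Srebf2, the transcription factor that drives this pathway, read 1.03 in NT-7, 1.14 in NT-8 and 1.76 in NT-9, against 2.84 to 3.08 (median 2.91) in the iPSC (difference -1.64, adjusted p = 2.9e-06). Lss, which closes the sterol ring, fell by 1.60 (adjusted p = 0.00646), but NT-9 at -0.07 lay within the iPSC range.

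Chromatin and RNA processing lists were also lower on balance. Their means in the iPSC, from 3.11 to 4.09, lie in the brightest band, where 1737 of 3936 genes fell. Of 19 DNA methylation and Polycomb genes 14 fell and 3 rose (73.7% and 15.8%; median -0.77). Dnmt3a, a de novo DNA methyltransferase, read 2.03 in NT-7, 2.62 in NT-8 and 3.67 in NT-9, against 5.10 to 5.33 (median 5.21) in the iPSC, a difference of -2.43 (SE 0.26, adjusted p = 9.5e-06); its mean was 3.79 in the ESC clones, and 1 of its 5 probe sets differed by 0.08. Mtf2, a Polycomb partner, fell by 1.90 in its brightest probe set and by 0.58 to 2.18 in the other 3. Ezh1, the second catalytic subunit of Polycomb complex PRC2, was the largest rise of the list, with 2.03 in NT-7, 1.91 in NT-8 and 1.69 in NT-9 against -0.29 to 0.41 (median 0.08) in the iPSC (difference 1.82, adjusted p = 1.7e-06). Of 19 chromatin remodelling and histone methylation genes 14 fell and 2 rose (median -0.97). Chd7, a chromodomain remodeller, was at -2.20 and Smarcc1, a BAF complex subunit, at -1.91. Kdm6a, an X-linked H3K27 demethylase, was at -2.73 in the probe set used. Its other set, with an iPSC mean of 2.13 against 2.32, differed by -0.42 and was not called after quantile normalization. Of 36 RNA splicing genes 21 fell and 4 rose (58.3% and 11.1%, median -0.67). Among those that fell were Rbm25 (-2.45, adjusted p = 1.9e-05) and Hnrnph1 (-1.45, adjusted p = 8.5e-06). Under a common SD the falls and rises in these 3 lists were 11 and 3, 13 and 3, and 17 and 7. Against the donor clones alone, 2, 4 and 1 members fell on both scales, against 480 of all 11807 genes. Sets were called in opposite directions in 0 of 13, 3 of 8 and 4 of 22 members with several probe sets. Over all genes with several sets this share was 11.5%.

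Immediate early genes, which respond within minutes to serum or stress, went up: 15 of 22 rose (68.2% against 33.5% of all genes) and 3 fell (median 0.65). Egr2 read 2.13 in NT-7, 2.72 in NT-8 and 1.99 in NT-9, against 0.02 to 0.48 (median 0.19) in the iPSC (difference 2.06, adjusted p = 1.5e-06). Jun read 3.37 in NT-7, 3.22 in NT-8 and 3.09 in NT-9, against 1.00 to 1.97 (median 1.27) in the iPSC (difference 1.82, adjusted p = 1.9e-05). Atf3 rose by 1.64 (adjusted p = 1.3e-04). The list mean was 2.48 to 2.64 in the NT-ESC, 1.95 to 2.18 in the iPSC and 2.32 to 2.74 in the 4 ESC clones, overlapping with the NT-ESC; this was not tested. Glycolysis and hypoxia genes went both ways, with 6 of 27 higher and 8 lower (22.2% and 29.6%, against 33.5% and 23.7% of all genes). When arrays were scaled to a common SD, 13 were higher and 3 lower. The hypoxia-induced prolyl hydroxylase P4ha2 was at 2.02 and the kinase Pdk1, which restrains pyruvate entry to mitochondria, at -1.76. Of 42 oxidative phosphorylation genes 14 rose and 10 fell (33.3% and 23.8%, near the 33.5% and 23.7% of all genes). Of 37 ribosomal protein genes 4 rose and 14 fell. The ribosomal list reversed to 24 higher and 2 lower when arrays were scaled to a common SD, so no direction is given for it. Gapdh (-0.32) turned positive under that scaling too, and the Actb probe set used here read 4.41 in NT-7, 4.54 in NT-8 and 4.95 in NT-9 against 5.54 to 5.71 (median 5.59) in the iPSC (difference -0.98, adjusted p = 2.2e-05), the other 0.01.

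**Figure D3:**
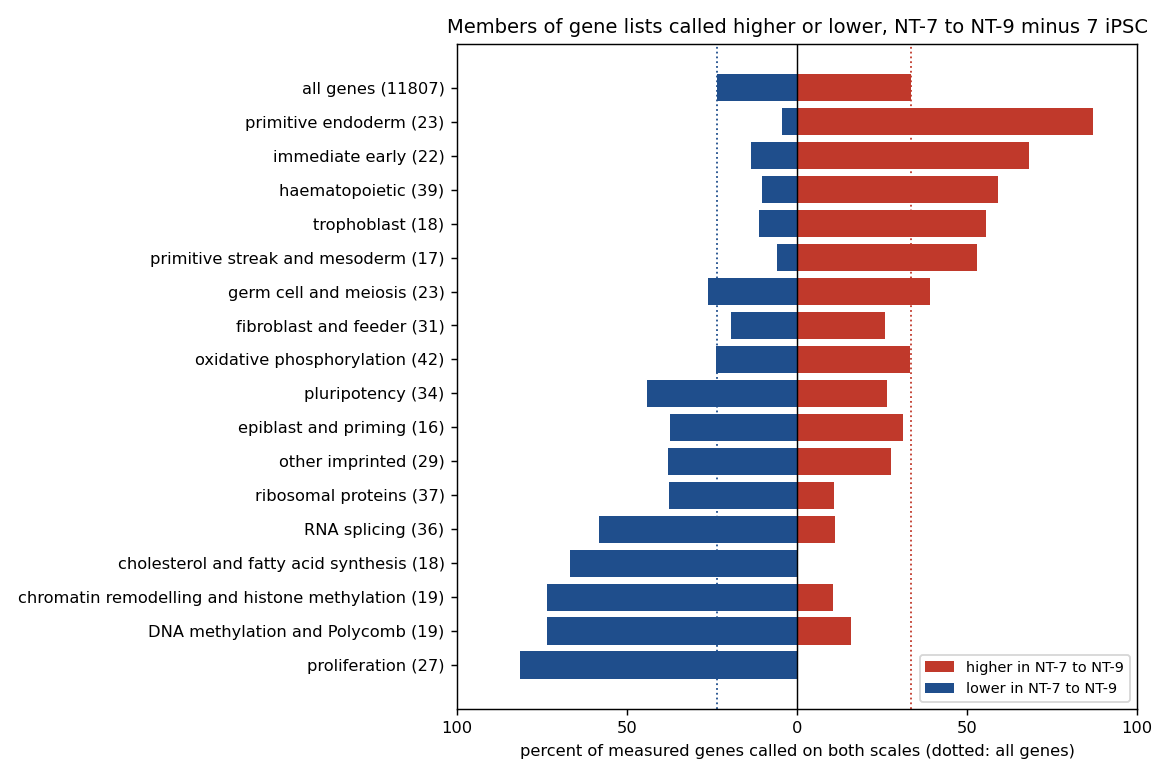
Percent of measured members of gene lists called higher or lower on both scales, NT-7 to NT-9 minus the 7 iPSC. Primitive endoderm has 87% higher (20 of 23) and proliferation 81.5% lower (22 of 27). Over all genes 33.5% were higher and 23.7% lower.

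Probe sets of the same gene disagreed more in this comparison than in others of the series. Over 1842 genes with more than 1 probe set above 0 in the iPSC, the median range of the differences within a gene was 0.93 log2 units, and 47.1% of genes had a range over 1. For the 4 ESC clones minus the same 7 iPSC the median range was 0.13 (0.38% over 1), and for NT-4 to NT-6 minus Adeno-2 it was 0.26 (1.09%). The first 2 share the iPSC arrays. Between the 2 sets of genes with exactly 2, Pearson's r across 1315 genes, which are not independent, was 0.34 for the NT-ESC minus iPSC and 0.57 for the Adeno-2 family. Of the 4150 genes with several probe sets, 479 (11.5%) had sets called in opposite directions on both scales. Every set rose in 416 (10%) and fell in 437 (10.5%). Genes named above with all sets in 1 direction, such as Col4a1, Apoa1, Lin28a, Hmga2 and Rrm2, are among those 853.

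**Figure D4:**
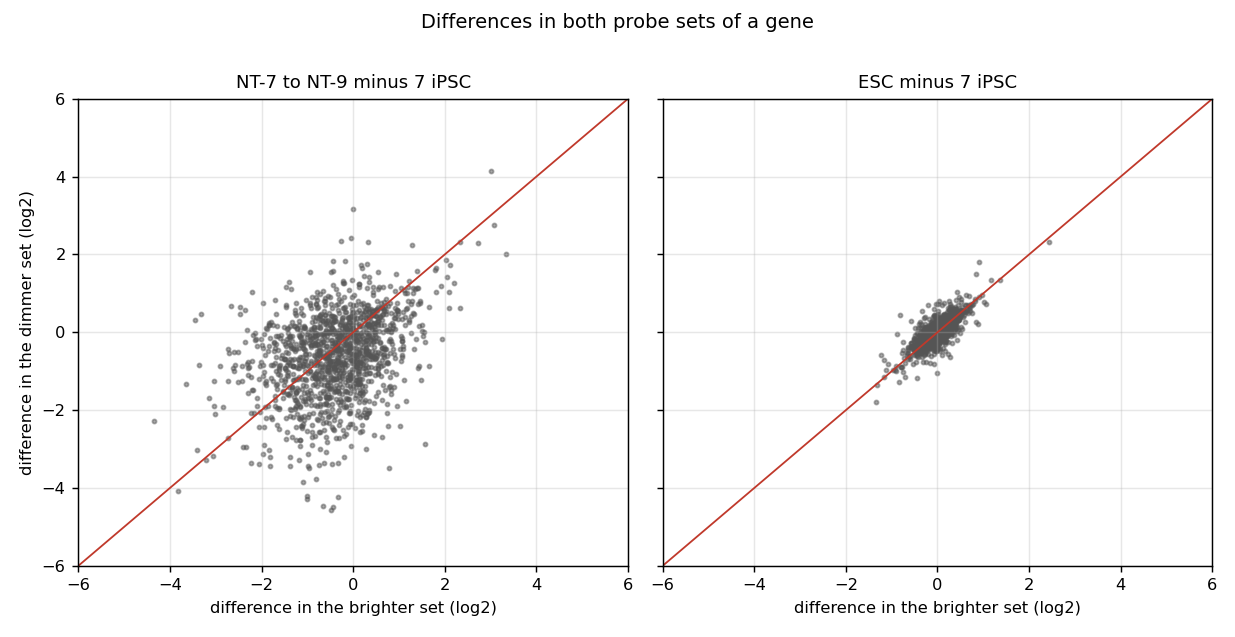
Differences (log2 units) of the 2 probe sets of each gene plotted against each other, 1 point per gene. The panels show NT-7 to NT-9 minus the 7 iPSC and the ESC clones minus the same 7 iPSC. Points scatter with r 0.34 across 1315 genes in the first panel.

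The NT-ESC were also set against their own donor clones alone. With only NT-7 and iPSC-7, and NT-8 and NT-9 with iPSC-15, and the donor family as a block, 2434 genes passed in the deposited values and 1211 on both scales (10.3%; 731 higher and 480 lower). This fit has 2 residual degrees of freedom. The differences of NT-7, NT-8 and NT-9 from their donors were -4.97, -5.31 and -5.38 for Snurf, and Apoa1 was higher by 3.73, 4.41 and 3.62. Col4a1 was higher by 2.09, 3.36 and 3.29, and Meg3 by 1.84, 2.46 and 1.96. Of the primitive endoderm list 10 members rose in this fit and 0 fell, and of the proliferation list 3 fell and 0 rose.

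NT-7, the 1 NT-ESC of the HSC family, differed from NT-8 and NT-9 in part of the genes. In a fit with an interaction of arm and family, the difference depended on family in 1698 genes on both scales (14.4%), 769 higher and 929 lower in the HSC family. Its 1 NT-ESC was assumed to vary like the others, and NT-7 had the lowest SD (2.35) and mean correlation (0.889) of all arrays, so array and family cannot be told apart. Stat5a, a signal transducer of cytokine receptors, read -1.65 in NT-7, 2.39 in NT-8 and 1.77 in NT-9 against -0.02 to 1.10 (median 0.53) in the iPSC, and the difference of the HSC family less that of the granulocyte family was -3.62 (adjusted p = 0.00146). Its kinase Jak2 read -0.87 in NT-7, 2.20 in NT-8 and 2.17 in NT-9, against 0.18 to 0.71 (median 0.51) in the iPSC (between families -3.19, adjusted p = 1.6e-04). In both, in the probe set used, NT-7 was below all iPSC and NT-8 and NT-9 above all of them. Their other sets did not show this. That of Jak2 read -1.41 in NT-7, -0.51 in NT-8 and -1.11 in NT-9, against -1.52 to -1.05 in the iPSC. That of Stat5a read -2.90, -3.15 and -2.95, against -3.62 to -3.19. Phf10, a BAF subunit, was at -1.31 in NT-7 and at 2.06 and 1.82 in the others (-3.20, adjusted p = 4.1e-05). In the other direction, Msh4, a meiotic recombination gene, read 0.63 in NT-7, -2.87 in NT-8 and -2.95 in NT-9, against -3.78 to -3.54 (median -3.60) in the iPSC (3.56, adjusted p = 2.5e-05). Igfbpl1 was at 1.90 in NT-7 against -1.54 and -1.57 in the others in the probe set used (3.51). Its other set read -1.57 in NT-7, -1.93 in NT-8 and -1.46 in NT-9, without that rise. Tbx1, a T-box gene of pharyngeal mesoderm, read 0.05 in NT-7, -2.50 in NT-8 and -3.12 in NT-9 (3.04, adjusted p = 2.0e-04). Of the primitive endoderm list 6 members passed this test, all with the smaller rise in NT-7, among them Sox17 (-2.67, adjusted p = 2.8e-04) and Srgn (-1.85, adjusted p = 6.6e-04).

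The same difference was set against that of the second NT-ESC family, which shares no array with it. The contrast of the difference here with that of NT-4, NT-5 and NT-6 minus Adeno-2 passed in 3623 genes on both scales (30.7%; 2092 higher and 1531 lower), with Adeno-2 as a single array assumed to vary like the others. Ctsh differed from iPSC by 4.15 here and by -1.67 in the Adeno-2 family (contrast 5.82, adjusted p = 4.8e-06). Slco2a1 differed by 4.75 and -0.79 (contrast 5.54, adjusted p = 1.9e-06). Both genes read higher in the NT-ESC than in iPSC in one family and lower in the other. Osmr, the oncostatin M receptor, read 2.49 in NT-7, 2.69 in NT-8 and 0.62 in NT-9, against -1.51 to 0.57 (median -0.73) in the iPSC, and its contrast was 5.02 (adjusted p = 5.6e-04). Downward, the contrast was -4.96 for Snurf, -4.67 for Zic2, -4.43 for Thumpd1, -4.36 for Etv1 and -4.21 for Parp12, an interferon-induced member of the PARP family (adjusted p between 4.5e-08 and 1.1e-04). For Rian it was 0.24 (adjusted p = 0.704); NT-4 to NT-6 minus Adeno-2 was -1.93 for Rian.

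Of 4 sex-linked transcripts measured, Xist and Eif2s3y fell and 0 rose. Xist, the RNA of X inactivation, read -2.19 in NT-7, -0.53 in NT-8 and -1.02 in NT-9, against 0.54 to 1.14 (median 0.86) in the iPSC, a difference of -2.09 (adjusted p = 4.3e-05); its 3 probe sets differed by -2.09, -0.89 and -0.27, the last not called. Eif2s3y, a Y-linked translation factor gene, read -2.40 in NT-7, -3.64 in NT-8 and -1.71 in NT-9. In the iPSC it was 2.33 to 2.73 in the HSC-origin clones and -1.79, 3.50 and -0.39 in iPSC-15, iPSC-16 and iPSC-17, so NT-7 differed from its donor by -5.13, NT-8 by -1.84 and NT-9 by 0.09. The arms overlapped in this gene. Over 198 X-linked genes with a mean level above 0, the median difference from the family's iPSC, less that of all such genes on the same array, was -0.38 in NT-7, -0.18 in NT-8 and -0.24 in NT-9, while each iPSC against the other clones of its family lay between -0.08 and 0.06. Chromosome 3 had the lowest median of the autosomes, at -0.24, -0.18 and -0.14 over 300 genes. These medians are descriptions with no test.

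**Figure D5:**
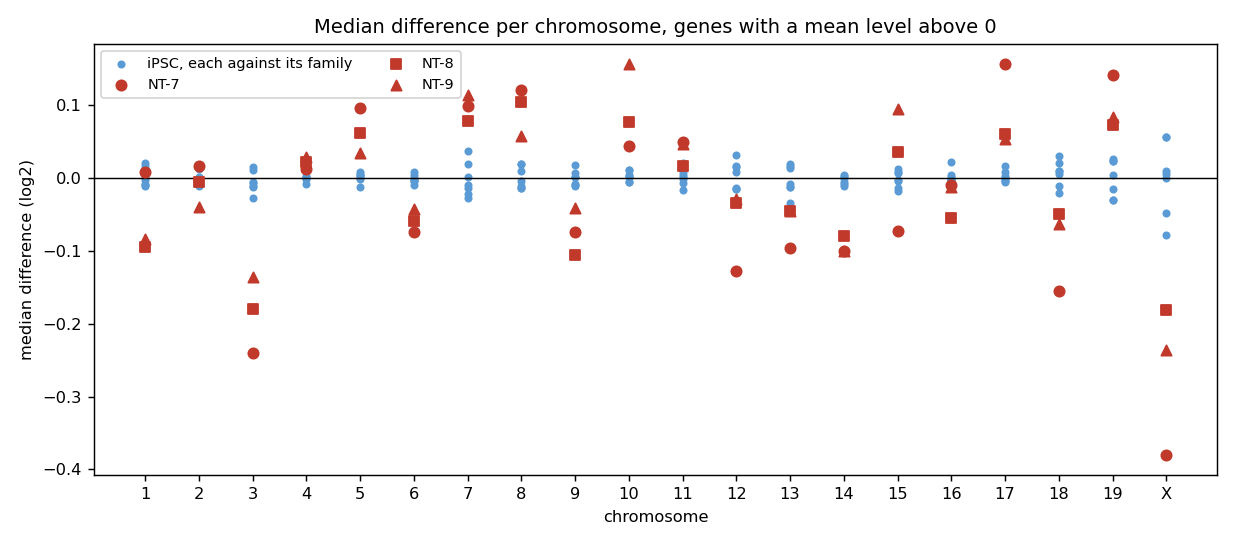
Median difference (log2 units, deposited values, less the median over all chromosomes) of genes with a mean level above 0 on each chromosome, for each NT-ESC against the iPSC of its family and for each iPSC against the other clones of its family. The NT-ESC medians of the X chromosome are -0.38, -0.18 and -0.24, and those of the iPSC lie between -0.08 and 0.06.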

How the data were processed

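RNA was labelled as biotinylated cRNA and hybridised to Affymetrix arrays, per the labels' protocols. The authors' deposited table holds log2 intensities for 22626 probe sets on 59 arrays; the log base and the centring near 0 were inferred from the values, and the summarisation method is not given in the sources used here. The values were not quantile normalized. The deposited values include 0 control probe sets with the Affymetrix name AFFX, so RNA quality was not read from controls. Of the probe sets, 18003 matched 1 gene, 287 several and 4336 none, 26 of them by the platform's symbol alone; names are those of RefSeq, GRCm38.p6. Where several probe sets read a gene, the brightest by its average across the 59 arrays stood for it, giving 11807 genes, of which 4150 have more than 1 set.

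NT-7, NT-8 and NT-9 were compared with the 7 iPSC in limma 3.58.1 (R 4.3.3) with lmFit and eBayes, without covariates, once on the deposited values and once after quantile normalization over all 59 arrays. The procedure was tested on simulated data in which every array had the spread of the iPSC. The wider spread of the NT-ESC was not part of that test. Summaries and plots used Python 3.11.15, pandas 2.3.3, numpy 2.4.6 and matplotlib 3.10.9. The number of arrays limits the precision.

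Named genes were the 15 largest differences in each direction among genes that passed on both scales with separate ranges, up to 4 members of each list that passed, the 6 largest in each direction for the family interaction and the Adeno-2 contrast, and the imprinted and reprogramming genes Meg3, Rian, Dlk1, Pou5f1, Sox2, Nanog, Klf4 and Myc; not every such gene is described. Other genes, such as Gata4, Gata6, Foxa2, Ttr, Dkk1, Dab2, Col4a2, the laminins, Hhex, Apoe, Krt18, Krt19, the trophoblast factors and the marker genes, were chosen after their values were seen. The members and gene lists were chosen with earlier results of these data known.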

Additional observations from a re-analysis of the deposited data

Results flagged for a closer look

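Within the 7 iPSC, single arrays lay far from the others for 12 of the 117 genes named, by a test that chance meets in about 1 in 20 groups. In iPSC-7 this held for Col4a2 (2.5), Lama1 (0.957), Nefl (3.2), Rtn4 (3.24), Selenbp1 (-1.93), Thy1 (0.85) and Timp1 (4.53). It held in iPSC-16 for Gata4 (-2.58) and Ascl2 (-0.461), and in iPSC-17 for Gstm3 (-0.178), Kdm6a (1.87) and Parp12 (2.81). These are log2 levels.

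The difference of NT-ESC from iPSC departed from that of the Adeno-2 family, by the contrast itself, upward for Ctsh (5.82), Srgn (5.66), Slco2a1 (5.54), Osmr (5.02), Dram1 (4.65) and Cubn (4.62). It departed downward for Snurf (-4.96), Zic2 (-4.67), Thumpd1 (-4.43), Etv1 (-4.36), Parp12 (-4.21) and Pax6 (-4.17). By the interaction term it differed between NT-7 and NT-8 with NT-9 for Msh4 (3.56), Igfbpl1 (3.51), Tbx1 (3.04), Jak2 (-3.19), Phf10 (-3.2) and Stat5a (-3.62). NT-7 is the only NT-ESC of its donor family, so array and family cannot be told apart in these.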

How the results depend on the processing

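In the deposited values 8700 of 11807 genes passed; in separate fits 5098 passed of 7084 tested with genes under the 40th percentile left out, and 2434 with the donor clones alone and the donor family as a block. After quantile normalization the count was 7528, and 4974 with low genes left out; for the donor comparison it was 1242. Under a rule chosen after seeing the data, 853 of the 4150 genes with several probe sets passed with every set on both scales; genes with a single set are not in that count. Leaving out 1 array at a time gave 8364 to 9057 genes in the deposited values and 7119 to 7953 after quantile normalization. With arrays weighted by their estimated precision, 6487 genes passed in the deposited values. Scaling to a common SD turned the differences of Dppa5a (0.44), Gapdh (0.251) and Nanog (0.00553) positive. In the probe set least like the one used, the sign was opposite for Actb (0.0104), Ascl2 (-0.391), Dnmt3a (0.0794), Esrrb (0.505), Fgfr2 (0.0998), Lamb1 (-0.0597), Mcm2 (0.228), Meg3 (-0.321), Pax6 (0.823), Pou3f1 (0.376) and Snrpn (0.528). The cause was not tested. Of 117 genes named, 73 kept their direction and side of the threshold under every alternative. No paired analysis was possible because the groups compared share fewer than 2 replicate numbers; this holds for pairing by number, while the donor clones named in the labels were used in the donor fit above.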

Other observations

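The remaining lists held genes of both directions, to be read against 33.5% higher and 23.7% lower over all genes. The germ cell and meiosis list lay near these shares, at 39.1% and 26.1%. The shares that rose among p53 targets (29.4%) and two-cell-like genes (30%) were also near that of all genes. Of 23 germ cell and meiosis genes 9 rose and 6 fell (median 0.43). Of 22 interferon response and MHC genes 5 rose and 8 fell (median -0.25). Of 17 p53 targets 5 rose and 6 fell (median -0.09). Of 25 Atf4, amino acid and ER stress genes 6 rose and 8 fell (median -0.26). Of 12 histone genes 3 rose and 6 fell (median -0.48), and of 10 two-cell-like genes 3 rose and 1 fell (median 0.47). Of 13 heat shock genes 3 rose and 6 fell, with a median of -0.26 that turned to 0.23 when arrays were scaled to a common SD.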
